A study of Mus musculus with 6 samples.

Results

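The 10 genes described here encode heat shock proteins and co-chaperones of the cytosol: Hspa1a, Hspa1b, Hspa8, Hsp90aa1, Hsph1, Dnajb1, Hspb8, Cryab, Bag3 and St13. They were taken by symbol from a count table of 23420 rows, and all 10 were found in it. The small heat shock protein gene Hspb1 was not part of the list. The RNA was bound to ribosomes and was pulled down from the cerebellum of 4-week-old C57BL/6 mice, 1 cerebellum per library. All mice carried Pcp2-BacTRAP, a tagged ribosomal protein under the promoter of the Purkinje cell gene Pcp2. The 3 control mice had the genotype Rbm17 f/+ and no Cre. The 3 conditional knockout mice (cKO) had Pcp2-Cre and Rbm17 f/-, so Cre and the null allele of this splicing factor gene were present only in cKO and cannot be told apart from loss of RBM17. The series title names cryptic splicing after loss of RBM17 and of TDP43 (only RBM17 libraries were analysed here), and the comparison here asks how far the heat shock genes and their splice junctions differ between these genotypes.

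Cytosolic chaperones bind unfolded proteins and help them to fold, to disaggregate or to be degraded. HSP70 proteins work in a cycle driven by ATP, in which J-domain proteins such as DNAJB1 deliver substrates and speed ATP hydrolysis, and nucleotide exchange factors such as HSPH1 and BAG3 release them. HSP90 acts later, on clients such as kinases and receptors, and small heat shock proteins hold unfolded proteins without ATP. Under proteotoxic stress the transcription factor HSF1 binds heat shock elements, repeats of the unit GAA in alternating orientation, and raises the inducible members of the group, while HSPA8 is made constitutively.

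RefSeq promoter windows (GRCm38.p6, 250 bases before to 50 after a transcription start) were matched for 6 of the 10 genes: Hspa1a, Hspa1b, Hsph1, Dnajb1, Hspb8 and Bag3, in 8 windows. They were searched for a pair of heat shock units, GAANNTTC or TTCNNGAA, each of which reads the same on both strands. At least 1 pair was found in 5 of the 6 genes, and 15.1% of all 32851 windows in the table held one. The matches are shown because they mark which inducible genes of the list carry these letters near their start. Capitals mark the match, and each line is read 5′ to 3′ on the strand of the gene.
Hspa1a, chr17:34972243-34972270, minus strand: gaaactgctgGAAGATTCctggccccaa
Hspa1b, chr17:34959325-34959352, minus strand: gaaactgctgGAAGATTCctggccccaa
Hsph1, chr5:149636352-149636379, minus strand: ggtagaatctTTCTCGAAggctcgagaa
Hsph1, chr5:149636287-149636314, minus strand: taaaatgctgcagaTTCTGGAAAGTTCt
Hspb8, chr5:116422845-116422872, minus strand: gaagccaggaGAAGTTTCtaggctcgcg
Bag3, chr7:128523605-128523632, plus strand: aagttctctggatgggaccaGAAGTTTC
The second Hsph1 line holds 3 units in a row (a TTCNNGAA pair followed, after a further 2 bases, by TTC), and the pairs within it are parts of the same match. A run of 3 units in either orientation stood in 0.603% of all windows. A match of letters is a description of the sequence and no evidence of binding. The Hspa1a and Hspa1b windows differed at 4 of 300 positions.

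None of the 10 genes passed the test between cKO and control, against 7.87% of the 16067 genes tested (edgeR quasi-likelihood test, Benjamini-Hochberg adjusted p under 0.05). DESeq2 also called 0 of them, and 12.7% of all genes. At an unadjusted p under 0.05 edgeR gave 0 genes of the list, against 22.1% of all genes, and DESeq2 gave 1. Under the alternatives as a whole this count ranged from 0 to 2, with 2 for the replicate block. In every one of the 10 genes the control and cKO libraries overlapped, whereas the groups did not overlap in 28.4% of the genes tested. The 10 log2 fold changes were all above 0 and lay between 0.01 and 0.63. Their median was 0.13, beside 0.01 over all genes tested. The 95% interval of each change included 0. Levels are CPM, read counts scaled to a common library total, on library sizes scaled by the TMM method.

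**Figure D1:**
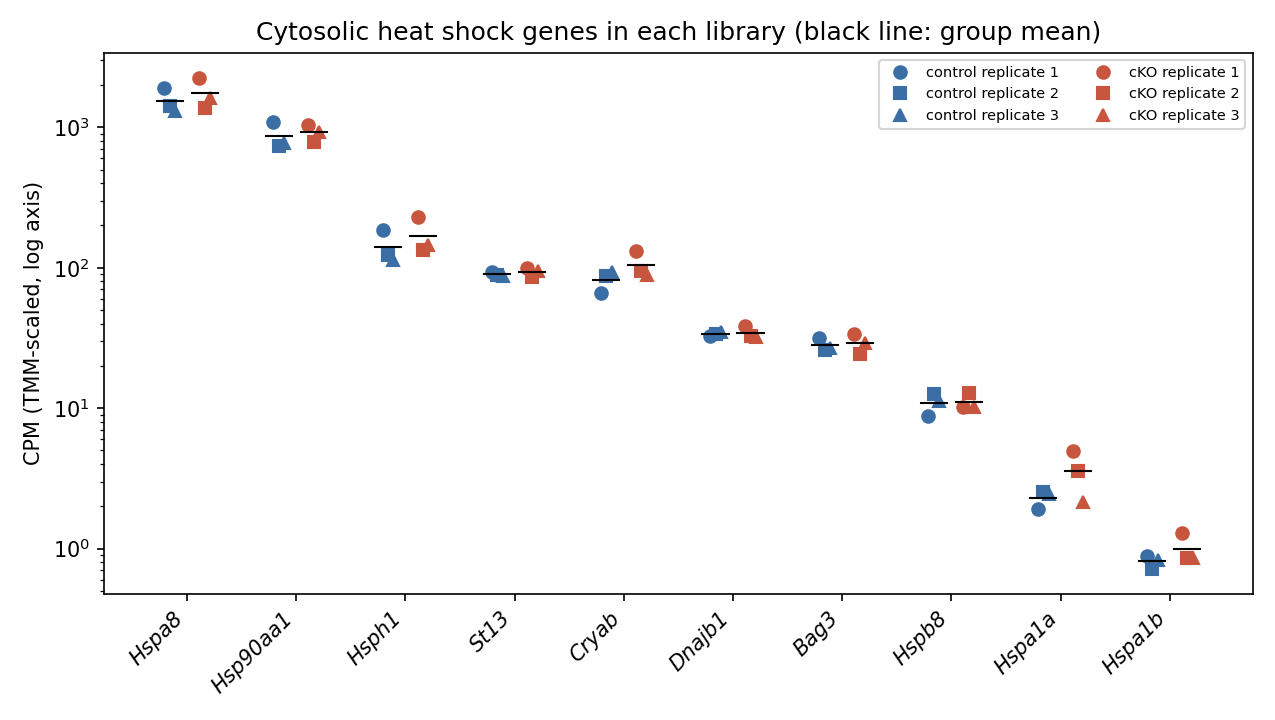
CPM (log axis) of the 10 genes in each of the 3 control (blue) and 3 cKO (red) libraries, with marker shapes for replicates and black lines for group means. CPM are not scaled for gene length; they run from 2260 CPM (Hspa8, cKO replicate 1) to 0.716 CPM (Hspa1b, control replicate 2), and the groups overlap in every gene.

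None of the HSP70 genes passed the test. Hspa8, which encodes the constitutive HSC70, stood at 1897, 1427 and 1313 CPM in control replicates 1, 2 and 3 and at 2260, 1378 and 1625 CPM in cKO replicates 1, 2 and 3. The highest library was cKO replicate 1, and the other cKO libraries lay within the control range. Its log2 fold change was 0.18 (SE 0.18, edgeR adjusted p = 0.63), a 1.14-fold difference with a 95% interval of 0.856 to 1.50.

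Hspa1a, an inducible HSP70 gene without introns, stood at 1.92, 2.55 and 2.43 CPM in control and at 4.95, 3.55 and 2.15 CPM in cKO, from 251, 366 and 337 reads and 802, 524 and 351 reads. Replicates 1 and 2 of cKO lay above all control libraries and replicate 3 lay among them. The log2 fold change of 0.63 was the largest of the list (SE 0.31, edgeR adjusted p = 0.28), and its interval of 0.953-fold to 2.51-fold was wide. Hspa1b, its near-identical neighbour, stood at 0.893, 0.716 and 0.836 CPM in control and at 1.29, 0.861 and 0.853 CPM in cKO. Here only cKO replicate 1 lay above the control range (log2 fold change 0.30, SE 0.41, edgeR adjusted p = 0.74).

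The sequence of these genes limits how their reads can be assigned. The coding sequences of Hspa1a and Hspa1b were 98.2% identical, and 48.6% of the 100-base windows of the Hspa1a transcript also occurred in transcripts of Hspa1b or Hspa1l. For Hspa1b the share was 49.9%. For Hspa8, 62.8% of windows occurred in transcripts of 7 other genes, Gm15459 among them, and for Hsp90aa1 47.5% in those of 3 others. The other 6 genes of the list shared no window of that length. The treatment of reads with several alignments is not stated in any source at hand, and the values of Hspa1a, Hspa1b, Hspa8 and Hsp90aa1 are uncertain, as is the split between Hspa1a and Hspa1b. Hspa1a also shared 564 exonic bases with Gm20481 on the opposite strand, and Cryab 252 with Hspb2. On its own strand, Hspa8 shared 86, 86 and 90 exonic bases with the small nucleolar RNA genes Snord14c, Snord14d and Snord14e.

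The J-domain and nucleotide exchange factor genes did not pass the test either. Dnajb1, which encodes a cytosolic HSP40, stood at 32.8, 33.6 and 34.8 CPM in control and at 38.4, 32.9 and 31.9 CPM in cKO. The control libraries were within 1.06-fold of each other, and the log2 fold change of 0.03 (SE 0.10, edgeR adjusted p = 0.91) had a 95% interval of 0.870-fold to 1.20-fold. Hsph1, which encodes the exchange factor HSP110, stood at 185.4, 123.1 and 112.6 CPM in control and at 229.2, 133.1 and 146.3 CPM in cKO. Replicate 1 was the highest library in both groups, and the controls alone spanned 1.65-fold, the widest range of the 10 genes. The log2 fold change was 0.27 (SE 0.22, edgeR adjusted p = 0.54).

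Bag3 encodes an exchange factor that joins HSP70 to HSPB8 and to autophagy receptors. It stood at 31.5, 25.8 and 27.0 CPM in control and at 33.5, 24.5 and 29.0 CPM in cKO. Again replicate 1 was the highest in each group (log2 fold change 0.05, SE 0.13, edgeR adjusted p = 0.89). St13 encodes Hip, which binds HSP70 in its ADP state. It stood at 93.5, 88.7 and 87.9 CPM in control and at 98.9, 86.4 and 94.5 CPM in cKO. Its interval was the narrowest of the list, 0.903-fold to 1.19-fold (log2 fold change 0.05, SE 0.09, edgeR adjusted p = 0.81).

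Hsp90aa1, the inducible cytosolic HSP90 gene, stood at 1091, 732.5 and 774.5 CPM in control and at 1045, 785.2 and 928.2 CPM in cKO. It was the only gene of the list whose highest library was a control. The log2 fold change was 0.09 (SE 0.16, edgeR adjusted p = 0.81), with an interval of 0.835-fold to 1.35-fold.

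The small heat shock protein genes of the list gave unlike values. Cryab, which encodes alpha-B crystallin and is known for expression in oligodendrocytes and astrocytes, stood at 65.9, 87.5 and 92.9 CPM in control and at 131.6, 94.9 and 89.4 CPM in cKO. Replicates 1 and 2 of cKO lay above all controls and replicate 3 did not. Its log2 fold change of 0.36 (SE 0.17) had the smallest p of the 10 genes (edgeR unadjusted p = 0.054, adjusted p = 0.24). Hspb8, the small heat shock protein gene whose product works with BAG3, stood at 8.79, 12.7 and 11.2 CPM in control and at 10.1, 12.7 and 10.2 CPM in cKO. Replicates 1 and 3 of cKO lay inside the control range. Replicate 2 lay just above it, at 12.74 CPM against 12.70 CPM in control replicate 2. The groups thus nearly coincided for Hspb8. Its log2 fold change was 0.01 (SE 0.17, edgeR adjusted p = 0.97).

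**Figure D2:**
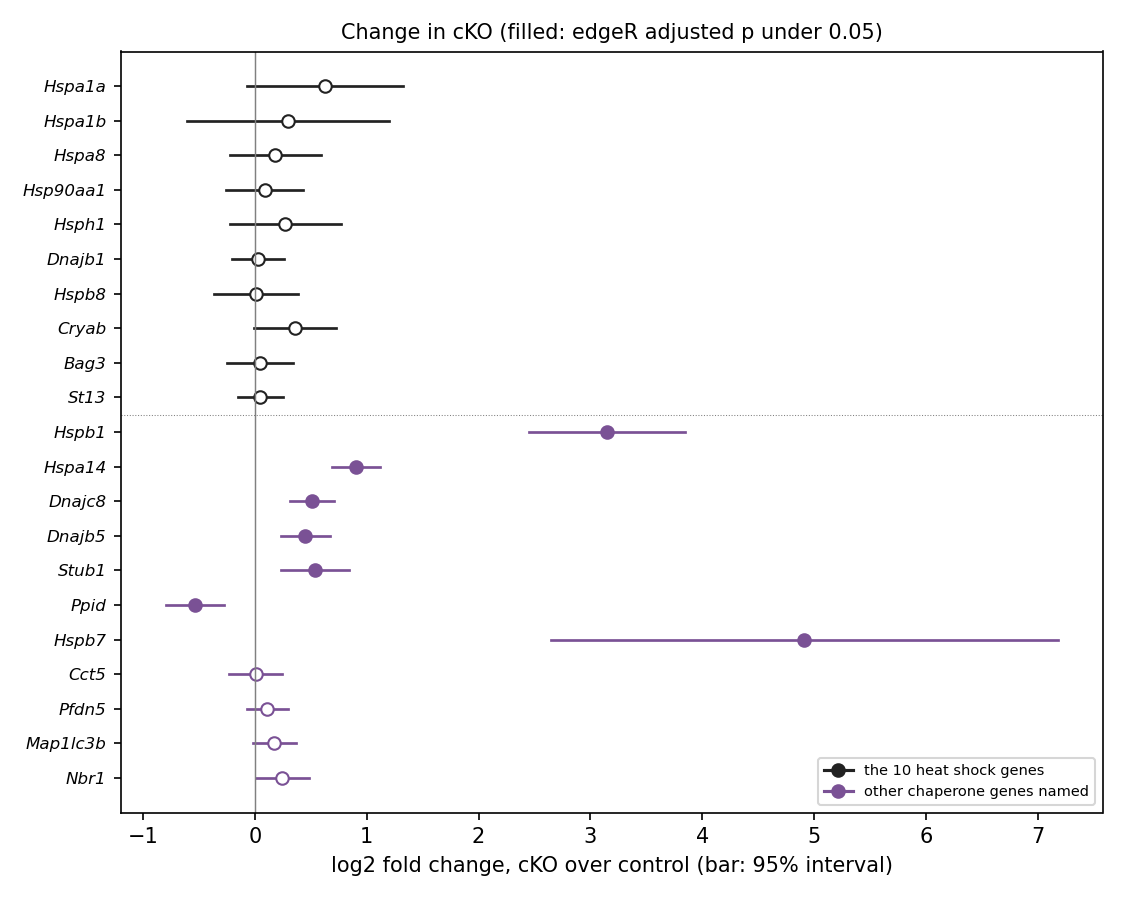
Log2 fold change of cKO over control (horizontal axis) with 95% intervals, with filled points where the edgeR adjusted p was under 0.05. Black marks the 10 heat shock genes. Purple marks other chaperone genes that passed the edgeR test or, in lists with none, had the highest CPM. All 10 black points are open and lie between 0.01 and 0.63, while Hspb1 and Hspb7 lie above 3.

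Per kilobase of exon, the only scale on which levels of different genes are compared here, the order in control was Hspa8 (359.4 ± 72 CPM per kilobase, SD, n = 3), Hsp90aa1 (220.3 ± 50), Cryab (55.5 ± 9.7), Hsph1 (19.3 ± 5.4), Bag3 (11.0 ± 1.2), Dnajb1 (10.5 ± 0.32), St13 (8.74 ± 0.30), Hspb8 (5.59 ± 1.0), Hspa1a (0.774 ± 0.11) and Hspa1b (0.291 ± 0.032). Hspa8 thus stood above the inducible Hspa1a and Hspa1b in every library. For each pair of neighbours except Bag3 and Dnajb1, the lowest of the 6 libraries of the higher gene lay above the highest of the lower one. Bag3 was above Dnajb1 in 3 of 6 libraries, so these levels were not told apart. Exon lengths are unions over all GENCODE vM21 transcripts of a gene, which lowers the value of genes with long rare isoforms. For St13 the union is 10305 bp, against 3346 bases in transcript St13-205, so its place below Bag3 and Dnajb1 depends on this length. The place of Hspa1a above Hspa1b depends on the uncertain split of their reads.

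Replicate 1 of cKO was the highest of the 6 libraries in 8 of the 10 genes, against 21.3% of the genes tested, and the highest cKO library in 9 of 10, against 36.8%. It was also the highest of the 6 in 52.9% of the 17 HSF1 regulators and further targets. The share was 53.8% for 13 TRiC and prefoldin genes, 38.5% for 13 HSP90 co-chaperone genes and 25% for 12 autophagy and disposal genes. For 6 further small heat shock genes it was 16.7%, for 25 further HSP70 network genes 16%, and for all 86 other chaperone genes tested 33.7%. Among markers it was 83.3% for 12 microglial, 12.5% for 16 Purkinje and 10% for 10 astrocyte and Bergmann glia genes. For granule cell, interneuron, oligodendrocyte and endothelial markers it was 0%. The exceptions to the first count were Hsp90aa1 and Hspb8. Relative to the control mean of each gene, the median of the 10 genes was 1.33 in cKO replicate 1, 0.967 in replicate 2 and 1.04 in replicate 3, beside 1.07, 0.954 and 1.00 in control replicates 1, 2 and 3. Without cKO replicate 1, 5 of the 10 log2 fold changes fell below 0, those of Hspa8 (-0.04), Hsp90aa1 (-0.02), Hsph1 (-0.0075), Dnajb1 (-0.06) and Bag3 (-0.07). Those of Hspa1a and Cryab became 0.31 and 0.17, and none of the 10 passed the test.

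**Figure D3:**
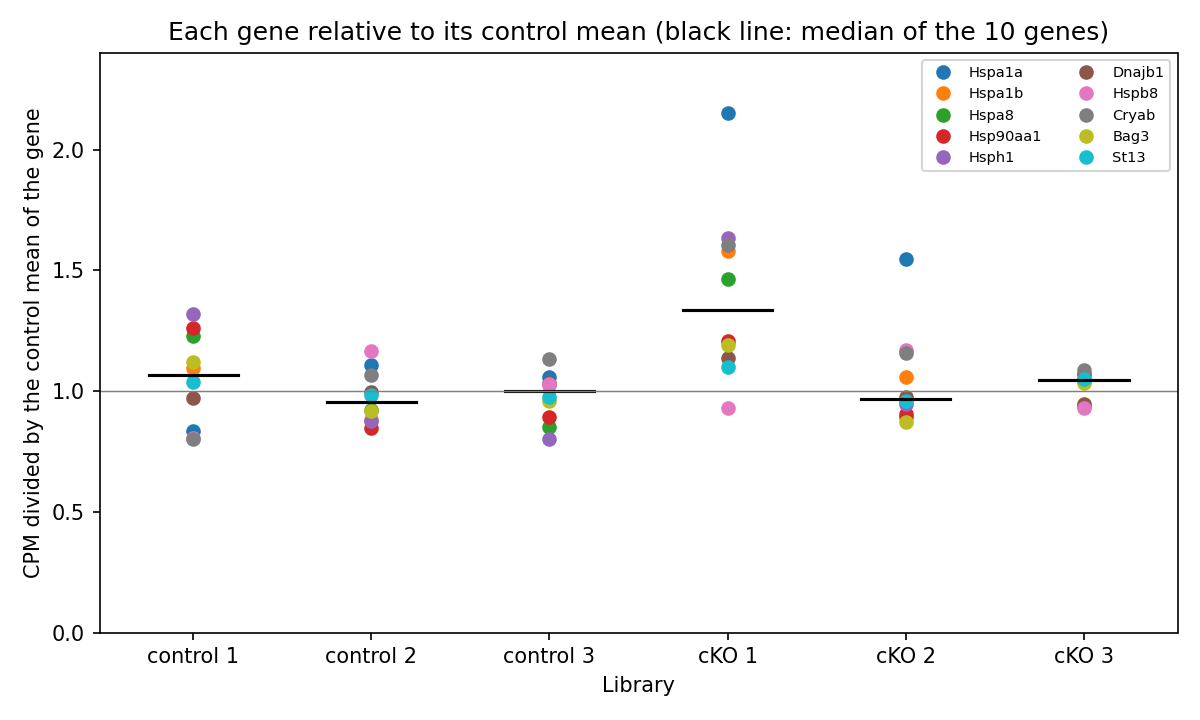
CPM of each of the 10 genes in each library divided by the control mean of that gene (vertical axis, linear from 0), with black lines for the median of the 10 genes. In cKO replicate 1 the median is 1.33 and 9 of 10 genes lie above 1, while the medians of the other libraries lie between 0.954 and 1.07.

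Among the controls the genes split. In replicate 1 of control, Hspa1b, Hspa8, Hsp90aa1, Hsph1, Bag3 and St13 were the highest of the 3 controls, while Hspa1a, Dnajb1, Hspb8 and Cryab were the lowest. Sums of cell type markers also differed between libraries, but not all in the direction of these genes. Most of the 10 genes were highest in cKO replicate 1. In that library the microglial sum was the highest of all libraries. The sums for Purkinje cells, granule cells, interneurons and oligodendrocytes, and for astrocytes and Bergmann glia, were the lowest there. The endothelial sum was lowest in control replicate 1. The summed level of 16 Purkinje cell markers was 43178 CPM in control replicate 1 against 32589 and 35333 in the other controls, and 19465, 21545 and 22658 in cKO replicates 1, 2 and 3. The sum of 12 oligodendrocyte markers, a cell type known to express Cryab, was 2900 CPM in control replicate 1 against 4410 and 3986, and 2319, 3489 and 2977 in cKO. The sum of 10 markers of astrocytes and Bergmann glia was 1895, 2062 and 2380 CPM in control and 1417, 1846 and 1877 in cKO. Among them Gfap encodes a filament protein of astrocytes. It stood at 39.3, 46.7 and 47.1 CPM in control and at 171.2, 91.1 and 104.1 CPM in cKO, lowest and highest in the same libraries as Cryab. Gfap was the only 1 of these 10 markers with its highest library in cKO replicate 1. It was also the only 1 with a log2 fold change above 0, against 9 below 0. The sum of 12 microglial markers was 135.6 CPM in cKO replicate 1 against 82.6 and 102.1, and 38.6 to 58.3 in control. In a bulk pull-down, fewer cells of a type and less RNA per cell cannot be told apart, and the part of these markers in the values of the heat shock genes was not tested.

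Over the whole series, libraries held 140110897 to 160571518 gene counts. The 10 genes made up 0.243% to 0.423% of them, and Rn45s, a precursor of ribosomal RNA, 9.56% to 13.5%, lowest in cKO replicate 1. Rbm17, the deleted gene, stood at 41.2, 42.5 and 41.3 CPM in control and at 25.7, 25.6 and 26.3 CPM in cKO, a log2 change of -0.69 with an edgeR adjusted p of 0.0016. Of 16 Purkinje markers 11 fell and 0 rose (median log2 fold change -0.62), and of 12 microglial markers 7 rose and 0 fell (median 1.35). None of the 10 granule cell, 10 interneuron, 12 oligodendrocyte and 8 endothelial markers passed the test, with medians of -0.08, -0.16, -0.30 and -0.06. Of 10 markers of astrocytes and Bergmann glia 1 rose, Gfap, and 2 fell (median -0.27). Of 12 immediate early genes, which also answer to tissue handling, 2 rose, Jun and Atf3, and 0 fell (median 0.17). No marker of these lists was at 0 in all libraries.

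Reads over splice junctions gave a second count of the 8 genes with introns, scaled to a common total of junction reads. The ratio of cKO to control had the same sign as the gene-level change in 7 of the 8, and differed for Hspb8, where both were near 0 (log2 ratio -0.02 over junctions). Hsph1 stood at 266.1, 192.3 and 176.6 in control and at 375.8, 223.4 and 233.3 in cKO. Cryab stood at 73.2, 98.8 and 107.2 in control and at 170.5, 116.1 and 112.6 in cKO, so that on this scale all 3 cKO libraries lay above all 3 controls, which they did not in gene counts. The log2 ratios of the means were 0.39 for Hsph1, 0.52 for Cryab and 0.31 for Hspa8. These are the same libraries counted another way, without TMM factors, and no test was made on them. In gene counts those factors (0.929 to 0.990 in control, 1.01 to 1.10 in cKO) lower cKO levels against control. The ratios from junctions and from gene counts are therefore not on the same scale.

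Of 38 junctions tested in 12 clusters of 5 heat shock genes (Hspa8, Hsp90aa1, Hsph1, Cryab and St13), 1 changed, against 0.751% of the 112047 junctions tested, of which 0.659% rose and 0.0928% fell (edgeR test of a junction against its cluster, adjusted p under 0.05 and a change of at least 5 percentage points in share). At an unadjusted p under 0.05 there were 5 of 38, beside 13.5% of all junctions. Among junctions that were seen in 2 or more libraries and had a summed count of 10 or more, none in Dnajb1, Hspb8 or Bag3 shared an end with another, and Hspa1a and Hspa1b have no intron. The junction that changed lies in intron 1 of St13, on chromosome 15 (mm10, 81396175 to 81399484, minus strand), and is not an annotated intron in GENCODE vM21. It leads from exon 1 into a segment of 70 bp (81396105 to 81396174), and a further unannotated junction leads from the segment to exon 2 (81392323 to 81396104).

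Control libraries had 4, 25 and 28 reads from exon 1 into the St13 segment, and cKO libraries 96, 107 and 143. The share of this junction in its cluster rose by 6.67 percentage points, with 1.65% ± 1.1 in control and 8.32% ± 0.60 in cKO (SD and n = 3 throughout; by edgeR's junction test the adjusted p was 0.047). The junction on the other side of the segment had 0, 20 and 31 reads in control and 47, 98 and 72 in cKO, and did not pass the test (share 1.47% ± 1.4 and 5.29% ± 2.0; by edgeR's junction test the adjusted p was 0.28). All cKO libraries lay above all controls on both sides. The estimated inclusion of the segment, from the mean of both junctions against the reads that join exon 1 to exon 2 directly, was 0.190%, 1.89% and 2.72% in control and 6.16%, 8.74% and 7.61% in cKO. The segment was singled out because its first junction passed the test in these same libraries, so inclusion is given as a description, with no test. The first junction no longer passed when any single library of the 6 was omitted (share change between 6.04 and 7.10 points), with a minimum of 50 reads and with the replicate block.

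The normal join of St13 exons 1 and 2 is printed because the segment is inserted at it. It is read from the GENCODE transcript St13-205, with the end of exon 1 in lower case and the start of exon 2 in capitals, and lies inside the coding sequence.
St13 exon 1 to exon 2: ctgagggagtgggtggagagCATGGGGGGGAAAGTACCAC
The length of the segment, 70 bp, is not a multiple of 3. The total level of St13 differed little between the groups, as given above, with 90.0 ± 3.0 CPM in control and 93.2 ± 6.3 CPM in cKO (SD, n = 3). The exon 1 to exon 2 junction had 1049, 1167 and 1055 reads in control and 1089, 1070 and 1305 in cKO, not scaled for depth. Its share of the cluster was 96.5% ± 2.6 in control and 84.0% ± 3.2 in cKO (SD, n = 3). This change of -12.5 points did not pass the test (edgeR junction test, unadjusted p = 0.43).

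**Figure D4:**
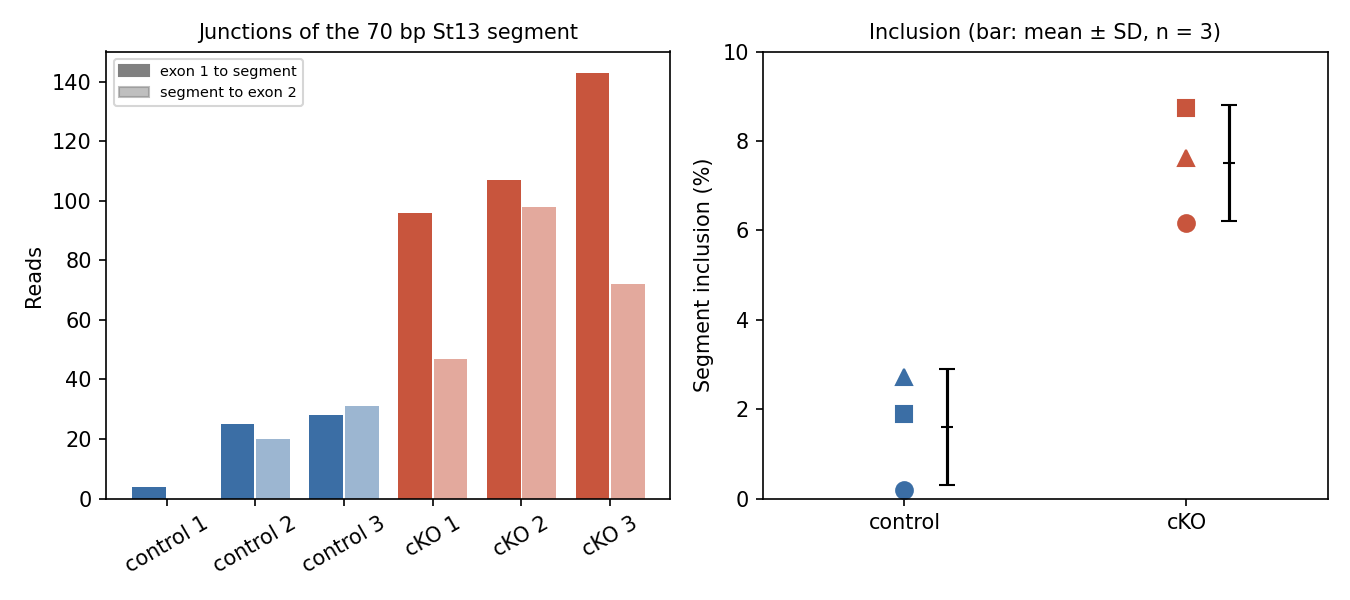
Left, reads over the unannotated junctions on both sides of the 70 bp segment in intron 1 of St13 in each library; right, estimated inclusion of the segment in percent, with points for libraries and bars for mean ± SD (n = 3). Inclusion lies between 0.190% and 2.72% in control (blue) and between 6.16% and 8.74% in cKO (red).

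With no minimum change in share, 3 of the 38 junctions had an adjusted p under 0.05, beside 2539 of all 112047 junctions tested (edgeR junction test). Of these, 2 were in Hspa8, each with a change in share below 5 points. The annotated junction at 40801349 to 40801988 of chromosome 9, which shares its start with the main junction at 40801349 to 40801917, had 0, 0 and 3 reads in control and 254, 2 and 168 in cKO (edgeR junction test, adjusted p = 0.0035). It reached 2.17% ± 1.9 of its cluster in cKO (SD, n = 3), and replicate 2 of cKO lay with the controls. The other, at 40804696 to 40804938, had 800 reads in cKO replicate 2 and at most 3 in any other library (edgeR junction test, adjusted p = 0.048). No junction of Hsp90aa1, Hsph1 or Cryab had an adjusted p under 0.05.

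Calls among other genes of the cytosolic chaperone system were about as frequent as among all genes. Of 88 further genes in 6 lists, 86 were tested, of which 6 rose and 1 fell, beside 4.03% rising and 3.85% falling among all genes tested. Their median log2 fold change was 0.05. Among the HSF1 regulators and further targets, 1 of 17 rose, Hspb1, the small heat shock protein gene kept out of the list of 10. Hspb1 stood at 6.70, 5.36 and 6.39 CPM in control and at 85.9, 31.2 and 46.4 CPM in cKO, which gave a log2 change of 3.15 (SE 0.32) and an edgeR adjusted p of 4.3e-04. As with most of the 10 genes, cKO replicate 1 was the highest, but here every cKO library lay above every control. Hsf1 itself stood at 83.6 ± 9.7 and 87.7 ± 2.1 CPM (SD, n = 3).

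In the further HSP70 network 4 of 25 genes rose and 0 fell by the edgeR test. Of the 25 log2 fold changes, 14 were above 0 and 11 below. Hspa14, which encodes an atypical HSP70 of the ribosome-associated complex, had 43.2 ± 2.8 CPM in control and rose to 80.9 ± 6.4 CPM in cKO, by 0.90 ± 0.10 (SE) on the log2 scale, at an edgeR adjusted p of 6.9e-04. The J-domain genes Dnajc8, whose product is found with the spliceosome, and Dnajb5 rose by 0.51 and 0.45 on the log2 scale. Stub1, which encodes the ubiquitin ligase CHIP that acts on HSP70 clients, rose from 8.03 ± 0.18 to 11.7 ± 1.1 CPM (SD, n = 3). The calls of Hspb1, Hspa14 and Dnajc8 held in all 6 fits that left out 1 library, that of Dnajb5 in 3 and that of Stub1 in 1. DESeq2 called 7 of the 25 network genes, beside 12.7% of all genes. Besides the 4 above they were Dnajc7, Bag2 and Bag5. In the edgeR fit the log2 fold changes of these were 0.39, -0.51 and -0.30 (edgeR adjusted p = 0.061, 0.099 and 0.064).

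In the HSP90 co-chaperone list 1 of 13 genes fell and 0 rose. It was Ppid, which encodes the peptidyl-prolyl isomerase cyclophilin 40 and fell by 0.53 on the log2 scale (SE 0.12) at an edgeR adjusted p of 0.023, with 50.8 ± 1.7 CPM in control and 35.1 ± 5.5 CPM in cKO (SD, n = 3). It passed in 3 of the 6 fits without 1 library. Of 6 further small heat shock genes tested 1 rose, Hspb7, known from heart and muscle. It stood at 0.046, 0 and 0.27 CPM in control and at 6.20, 1.71 and 1.78 CPM in cKO, at an edgeR adjusted p of 0.017, and without cKO replicate 1 its adjusted p was 0.085. None of 13 genes of the TRiC chaperonin and prefoldin passed the test (1 at an unadjusted p under 0.05). Those with the highest CPM, which is not scaled for gene length, were Cct5 (99.4 ± 8.9 and 99.9 ± 11 CPM) and Pfdn5 (89.3 ± 4.2 and 96.4 ± 0.91 CPM, SD, n = 3). None of 12 genes of autophagy and ubiquitin-dependent disposal passed it (2 at an unadjusted p under 0.05), and those with the highest CPM were Map1lc3b at 343.5 ± 12 and 387.3 ± 24 CPM and the autophagy receptor gene Nbr1, at 151.3 ± 21 and 179.4 ± 7.2 CPM (SD, n = 3). DESeq2 called 0 of the TRiC and prefoldin genes and 1 disposal gene, Sqstm1, beside 12.7% of all genes.

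The genes most like the heat shock genes in pattern were sought by Pearson's r of log2(CPM + 1) over the 6 libraries, as a description among 16067 genes. For Hspa8 they were Gnl2 (r = 0.998), Polr1a (0.998) and the chaperonin subunit gene Tcp1 (0.996). For Dnajb1 they were Ngef (0.989), Eya4 (0.988) and Park7 (0.987), and for Cryab Fra10ac1 (0.995), 5930438M14Rik (0.990) and Scnn1g (0.990). The libraries share genotype, depth and marker differences, so these values describe a pattern over 6 points.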

How the data were processed

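Ribosome-bound RNA was sequenced from 6 cerebella, 3 per genotype. The authors deposited a table of raw read counts per gene and a table of read counts per splice junction for each library. TopHat2 2.1.0, HTSeq 0.6.0 and build mm10 are named, per the submitters' processing notes. No source used here gives the annotation, strand setting or handling of multiply aligned reads. The RNA was amplified from small amounts before sequencing, per the labels' protocols, so read counts are not counts of independent molecules.

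Counts were tested with edgeR 4.0.16 (filterByExpr, TMM, quasi-likelihood, Benjamini-Hochberg over 16067 genes, alpha 0.05) in R 4.3.3. CPM were computed with TMM-scaled sizes. Standard errors were derived from the fold change and its F value. Junctions seen in 2 or more libraries, with a summed count of 10 or more, were tested within clusters that share an end, with edgeR's test of differential splicing. DESeq2 1.42.0, limma 3.58.1, other normalizations and filters, a replicate block and leaving out each library were the alternatives. The tests were checked on simulated data. Rows of the table whose symbols had become dates (27) name no gene that could be matched.

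The 10 genes and all gene lists were chosen with earlier results of these data known. Genes named outside the 10 are those of the chaperone lists that passed the test, and, in lists with none, those with the highest CPM, not scaled for gene length. The exceptions, Hsf1, Sqstm1, Dnajc7, Bag2, Bag5, Gfap, Jun, Atf3 and Rbm17, and the Hspa8 and second St13 junctions, were named after their values were seen or as the deleted gene. Nothing in the labels says more of the replicates than that each was 1 cerebellum.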

Additional observations from a re-analysis of the deposited data

How the results depend on the processing

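None of the 10 heat shock genes passed the test under any alternative run, the lowest adjusted p being 0.079 (Hsph1, edgeR with the replicate block). Of 150 values of the 10 genes under alternatives, 137 kept their direction and 13 reversed. Leaving out 1 library at a time gave log2 fold changes of -0.042 to 0.35 for Hspa8, -0.040 to 0.28 for Hsp90aa1, -0.0075 to 0.52 for Hsph1, -0.059 to 0.080 for Dnajb1, -0.12 to 0.12 for Hspb8, -0.072 to 0.15 for Bag3 and -0.079 to 0.080 for Cct5. The ranges of the genes that stayed above 0 were 0.31 to 0.89 for Hspa1a, 0.072 to 0.40 for Hspa1b, 0.17 to 0.46 for Cryab and 0.0059 to 0.10 for St13. Without both libraries numbered 1, an alternative chosen after seeing the data, Dnajb1 was at -0.079, Hspb8 at -0.063 and Cct5 at -0.0053. Cct5 was at -0.0035 with RLE size factors and with DESeq2. The 7 calls among other chaperone genes became 11 with DESeq2, 12 with the replicate block, 11 without both libraries numbered 1 and 4 to 9 when 1 library was left out, and 6 with limma-voom, which lost Hspb7 (adjusted p = 0.070). Over all genes the same fits gave 1265 calls in the main analysis, 2042 with DESeq2, 1734 with the block, 1336 without both libraries numbered 1, 530 to 1037 without 1 library and 1239 with limma-voom. The cause was not tested. The 1 junction call became 0 with a minimum of 50 reads, 0 with the replicate block, 0 with a change of at least 10 points, 0 to 0 when 1 library was left out and 3 with no minimum change. Samples with the same replicate number deviated together with correlations of 0.24, -0.01 and 0.05, beside -0.25 to 0.23 for unlike numbers. With 3 libraries per group, these values cannot show whether the numbers pair the samples. Hspa1a and Hspa1b had 103 to 802 reads per library, the fewest of the 10 genes.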
